A study of Mus musculus with 10 samples.

Results

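The 5 semaphorins and 4 plexins described here are Sema7a, Sema4a, Sema4b, Sema4d, Sema3f, Plxna1, Plxnb2, Plxnc1 and Plxnd1, taken by gene name from a table of 46603 genes. They were chosen by name as semaphorin pathway genes of myeloid cells, with their measured CPM and fold changes between PoEMs and non-PoEMs already known, so their differences between those fractions are given as a description. No p-value is given for these differences. The calls of the genes in the fit over all genes are given with nothing read from them. All 9 were matched, and all 9 passed the filter on low counts.

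PoEMs are podoplanin-expressing macrophages, sorted as viable cells positive for CD11B, F4/80 and PDPN. Non-PoEMs are the PDPN-negative cells of the same CD11B and F4/80 gate. Both fractions came from mouse tumours of 4T1, a mammary carcinoma line, with 1 library of each fraction from each of 5 tumours, numbered 1, 2, 4, 5 and 6. All tumours were digested with collagenase and dispase before sorting. The host strain, age and tumour site are not given in the labels used here. The study asked about the part of PDPN-positive macrophages in lymphatic vessel growth and matrix remodelling. The labels do not say that each tumour came from its own mouse, and p-values speak for these tumours.

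Semaphorins are ligands built around a shared sema domain, and plexins are their main receptors. Class 3 semaphorins are secreted and mostly need a neuropilin beside the plexin, class 4 semaphorins span the membrane, and Sema7a is held in the membrane by a lipid anchor. Plexins signal to the cell skeleton and to integrins through small GTPases. In myeloid cells the family is known for effects on migration, on contacts with T cells and on endothelium.

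Library totals ran from 12597829 to 15406722 counts, so 1 count was worth 0.0649 to 0.0794 CPM (counts scaled to a common library total). Pdpn measured 214.5 ± 22.9 CPM in PoEMs and 19.3 ± 7.33 CPM in non-PoEMs (SD, n = 5 each). Summed CPM of 11 macrophage markers overlapped between fractions, at 17530 to 20800 in PoEMs and 17410 to 19990 in non-PoEMs. Within that list Itgam, which encodes CD11B, measured 1384 ± 59.3 CPM in PoEMs and 1185 ± 69.3 CPM in non-PoEMs, and Adgre1, which encodes F4/80, 526.5 ± 70.7 and 572.7 ± 62.2 CPM. Csf1r, the receptor for the macrophage growth factor CSF1, measured 2405 ± 226 and 2849 ± 133 CPM in the same order, and the lysosomal gene Cd68 756 ± 69.4 and 647 ± 68.3 CPM. The overlapping sum hid shifts both ways. In the fit over all genes, 1 of the 11 macrophage markers (Itgam) was called higher in PoEMs and 2 lower, Csf1r among them. With the tumour as a block 3 were called higher and 3 lower. Of all genes, 13.6% were called in either direction, and 28.2% with the block. Fibroblast sums did not overlap, at 298.7 to 487 CPM in PoEMs and 32.4 to 44.2 CPM in non-PoEMs. Monocyte sums were 467 to 703 and 986 to 1548 CPM, neutrophil sums 119 to 148 and 221 to 295 CPM, and eosinophil sums 4.76 to 14.4 and 58.6 to 149 CPM, again with PoEMs first. In such bulk libraries fewer cells of a type and less RNA per cell cannot be told apart.

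Sema7a and Plxnc1, a ligand and its plexin receptor, lay on opposite sides of the contrast (log2 fold change -3.96 and 0.22). The gap of Plxnc1 was small, and its fractions overlapped. The 250 bases before their annotated starts are shown, from RefSeq on GRCm38.p6, to set the start regions of this pair side by side. They are chr9:57939862-57940111, plus strand, and chr10:94944846-94945095, minus strand. Capitals mark matches, on either strand, to 4 short motifs: ACGTG of hypoxia-inducible factors, GATAA of GATA factors, GAGGAA of ETS factors such as PU.1, and TGANTCA of AP-1.
Sema7a: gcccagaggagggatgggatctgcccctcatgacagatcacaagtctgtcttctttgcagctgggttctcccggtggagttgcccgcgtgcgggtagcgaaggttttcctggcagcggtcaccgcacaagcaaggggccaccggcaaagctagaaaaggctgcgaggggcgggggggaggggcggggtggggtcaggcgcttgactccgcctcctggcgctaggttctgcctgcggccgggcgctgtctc
Plxnc1: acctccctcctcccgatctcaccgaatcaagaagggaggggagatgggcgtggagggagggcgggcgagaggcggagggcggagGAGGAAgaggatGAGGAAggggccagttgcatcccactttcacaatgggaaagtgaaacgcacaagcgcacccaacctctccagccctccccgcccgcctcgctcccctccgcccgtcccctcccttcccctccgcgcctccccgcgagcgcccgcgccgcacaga
The Plxnc1 window held GAGGAA at bases -166 and -154 from the start, and the Sema7a window held none of the 4 motifs. Over 32851 windows of the same length, 23.3% held GAGGAA, 22.6% GATAA, 16.6% ACGTG and 6.75% TGANTCA. The Sema7a window had 17 CpG dinucleotides and the Plxnc1 window 22, against a median of 6 over all windows. Windows were found for 7 of the 9 genes, and not for Sema3f and Plxna1. These letters say nothing on which factors bind.

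Sema7a was the member with the widest gap between the fractions, and its 5 PoEM values all lay far below its 5 non-PoEM values. Its product binds plexin C1 and beta 1 integrins and is known to stimulate monocytes. Sema7a had 1.69, 2.82, 1.63, 2.29 and 2.64 CPM in PoEMs of tumours 1, 2, 4, 5 and 6, against 21.2, 60.8, 22.3, 32.5 and 34.9 CPM in non-PoEMs of the same tumours. Tumour 2 was the highest in both fractions. These values rested on 152 reads over all PoEM libraries and 2441 over all non-PoEM libraries. The fitted level was 15.6-fold lower in PoEMs (log2 fold change -3.96 ± 0.34, SE). Within tumours the log2 difference ran from -4.40 to -3.60. Sema7a (ENSMUSG00000038264) lies on chromosome 9, 57940112 to 57962865 of GRCm38, plus strand, with no other annotated gene over it.

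Sema4a and Sema4d, the abundant membrane semaphorins of the set, were moderately lower in PoEMs. Sema4a acts on T cells and, through plexins, on endothelium. It had 196.5, 225, 190.3, 207 and 182 CPM in PoEMs of tumours 1, 2, 4, 5 and 6, against 235, 280.3, 261, 279.7 and 241 CPM in non-PoEMs. The fractions did not overlap, and the log2 fold change was -0.37 ± 0.07 (SE). Sema4d, also known as CD100, binds plexin B1 and plexin B2, and CD72 on lymphocytes. Its values were 207, 209.7, 216, 201 and 146 CPM in PoEMs, against 281, 318, 257, 253 and 238 CPM in non-PoEMs, tumours in the same order. Again the fractions did not overlap, with PoEMs of tumour 6 well below the other 4. The log2 fold change of Sema4d was -0.46 ± 0.11 (SE), and -0.37 without that library. Lymphocyte and dendritic cell markers lay on the same side. B cell marker sums were 1.75 to 12.4 CPM in PoEMs and 3.75 to 28.7 CPM in non-PoEMs, T and NK cell sums 9.49 to 18.1 and 16.1 to 44.7 CPM, and conventional dendritic cell sums 14.7 to 53.6 and 22.7 to 79.8 CPM. The 1 tested B cell marker, Cd79b, fell (log2 fold change -1.37), as did the 1 tested T cell marker, Cd4 (-1.01). Of 5 tested dendritic cell markers 1, Dpp4, fell (-1.74). Over all genes 6.77% were called lower. Tumour 2 had the highest B cell and T and NK cell sums in both fractions, and its non-PoEMs were also the highest library for Sema4a, Sema4d and Sema7a. The part of these cells in the Sema4a and Sema4d values was not tested.

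Sema4b and Sema3f overlapped between the fractions. Sema4b, another membrane semaphorin, had 11.9, 18.2, 15.4, 24.6 and 21.3 CPM in PoEMs and 13.8, 19.4, 14.1, 25.3 and 21.7 CPM in non-PoEMs of tumours 1, 2, 4, 5 and 6. Both fractions of a tumour lay close together, and tumours differed by more than fractions did. Its log2 fold change was -0.05 ± 0.22 (SE), -0.18 without PoEMs of tumour 5 and 0.08 without non-PoEMs of tumour 5. Sema3f, a secreted ligand of neuropilin 2 that repels endothelial cells, was scarce: 2.32, 3.03, 3.26, 2.51 and 3.02 CPM in PoEMs and 4.14, 3.15, 2.63, 4.40 and 2.63 CPM in non-PoEMs. It was lower in PoEMs in 3 tumours and higher in 2 (log2 fold change -0.26 ± 0.19, SE). That value was -0.15 without non-PoEMs of tumour 5, and -0.10 in the blocked fit without tumour 1 or 5.

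**Figure D1:**
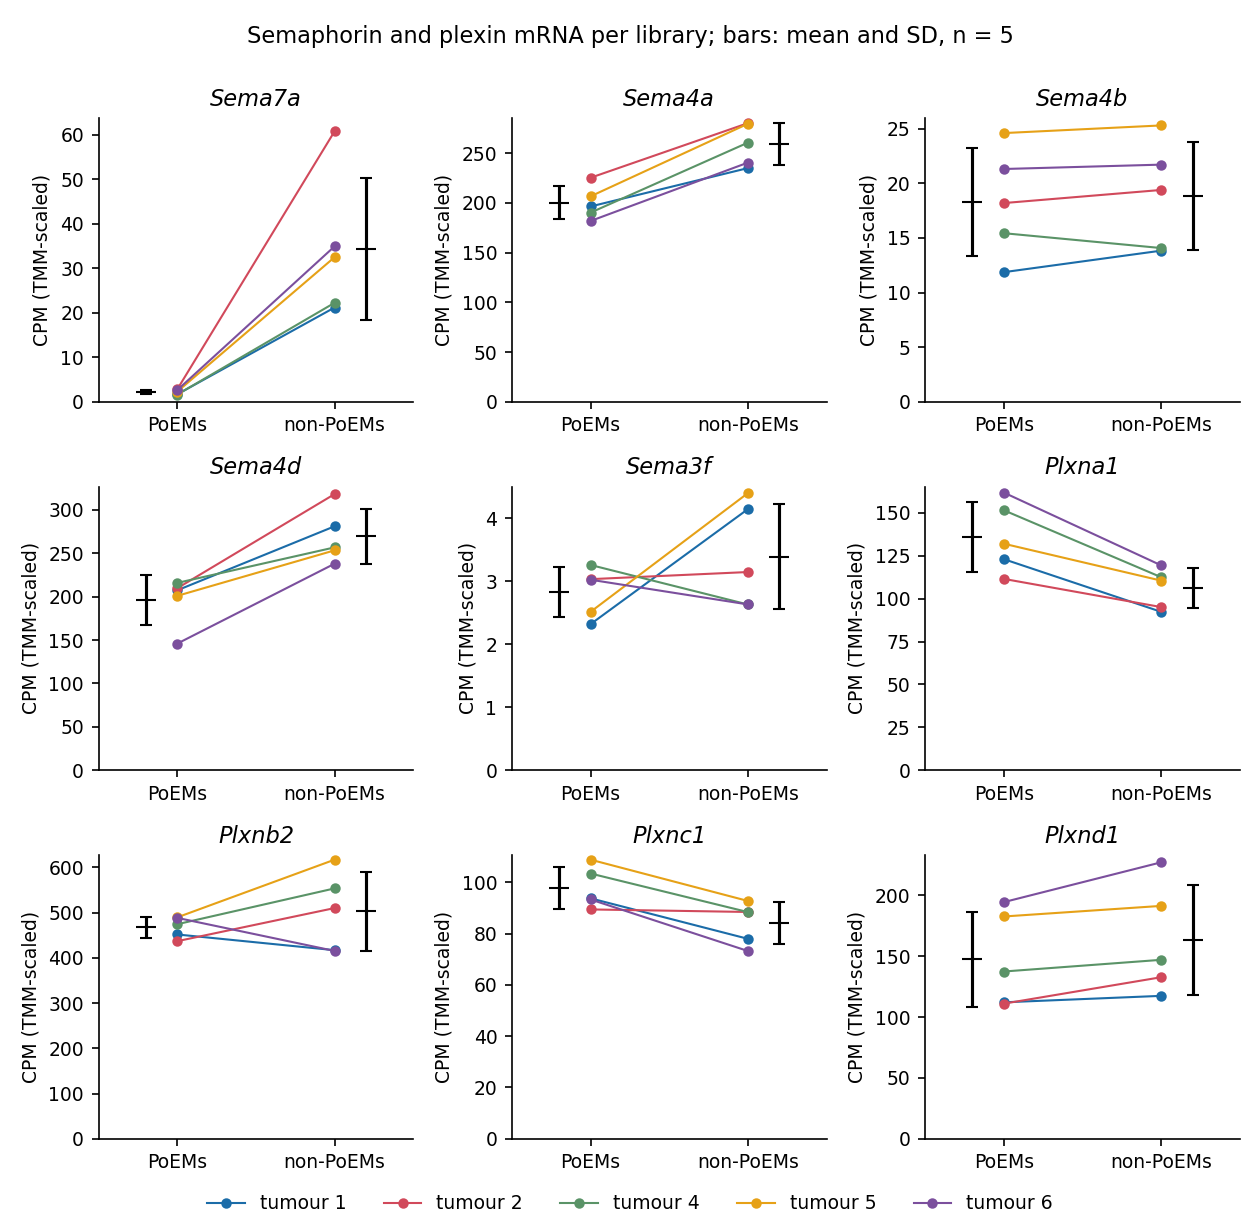
CPM (vertical axis, from 0, TMM-scaled) of the 9 genes in PoEMs (left) and non-PoEMs (right), with a line joining both fractions of a tumour and bars for mean and SD of 5 libraries. Sema7a, Sema4a and Sema4d show no overlap between fractions, while the lines of Sema4b and Plxnd1 run nearly level and far apart.

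Among the receptors, Plxna1 and Plxnc1 were higher in PoEMs in all 5 tumours. Plexin A1 is a receptor of class 3 semaphorins with neuropilins and of Sema6d. In dendritic cells and osteoclasts it works with the receptor Trem2 and the adaptor Tyrobp. Plxna1 had 123, 111.5, 151.5, 132 and 162 CPM in PoEMs, against 92.3, 95.1, 112.5, 110.5 and 119 CPM in non-PoEMs of tumours 1, 2, 4, 5 and 6. The ranges overlapped across tumours, but each PoEM library exceeded its own partner (log2 fold change 0.36 ± 0.11, SE). Plxnc1, the Sema7a receptor, had 93.7, 89.4, 103, 109 and 93.3 CPM in PoEMs, against 77.9, 88.4, 88.4, 92.7 and 73.2 CPM in non-PoEMs. Tumour 2 showed almost no gap, at 0.02 on the log2 scale, and tumour 6 the widest, at 0.35. The log2 fold change of Plxnc1 was 0.22 ± 0.08 (SE).

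Plxnb2 and Plxnd1 differed less between the fractions. Plexin B2 is a receptor of class 4 semaphorins. Plxnb2 had 452, 437, 474, 489.6 and 488 CPM in PoEMs, against 417, 510.1, 554, 617 and 415 CPM in non-PoEMs of tumours 1, 2, 4, 5 and 6. It was lower in PoEMs in 3 tumours and higher in 2, and its log2 fold change was -0.10 ± 0.10 (SE), -0.02 without non-PoEMs of tumour 5 and -0.16 without non-PoEMs of tumour 1 or 6. Plexin D1, the Sema3e receptor of blood vessels, also binds Sema4a. Plxnd1 had 112, 111, 137, 183 and 194 CPM in PoEMs, against 117.4, 133, 147, 191 and 227 CPM in non-PoEMs. It was lower in PoEMs in 5 of 5 tumours by a small step (within-tumour log2 difference -0.14 ± 0.09, SD, n = 5), while the tumours themselves ranged widely. Its fitted log2 fold change was -0.15 ± 0.22 (SE), and 0.00 without non-PoEMs of tumour 6.

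In the fit over all 13595 genes tested, 1 of the 9 (Plxna1) was called higher in PoEMs and 3 (Sema7a, Sema4a and Sema4d) lower, against 6.83% and 6.77% of all genes and 13.6% in either direction (quasi-likelihood test of edgeR, threshold 0.05 on the adjusted p). With the tumour as a block, Plxnc1 was also called higher and Plxnd1 lower, which gave 2 higher and 4 lower, against 13.8% and 14.3% of all genes. The fractions did not overlap for 3 of the 9, all lower in PoEMs, against 10.5% of all genes (5.38% higher and 5.13% lower), and 6 of the 9 had the same sign in 5 of 5 tumours, against 35.0%. Nothing is read from these shares, since this contrast was known when the genes were chosen. The call of Plxna1 without the block was lost on leaving out PoEMs of tumour 4, 5 or 6 or non-PoEMs of tumour 1, 2, 4 or 5 (log2 fold change 0.29 to 0.37). With the block, the call of Plxnd1 was lost without tumour 2 (-0.12) or tumour 6 (-0.12). The median log2 fold change was -0.15 over the 9 genes and 0.01 over all genes.

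**Figure D2:**
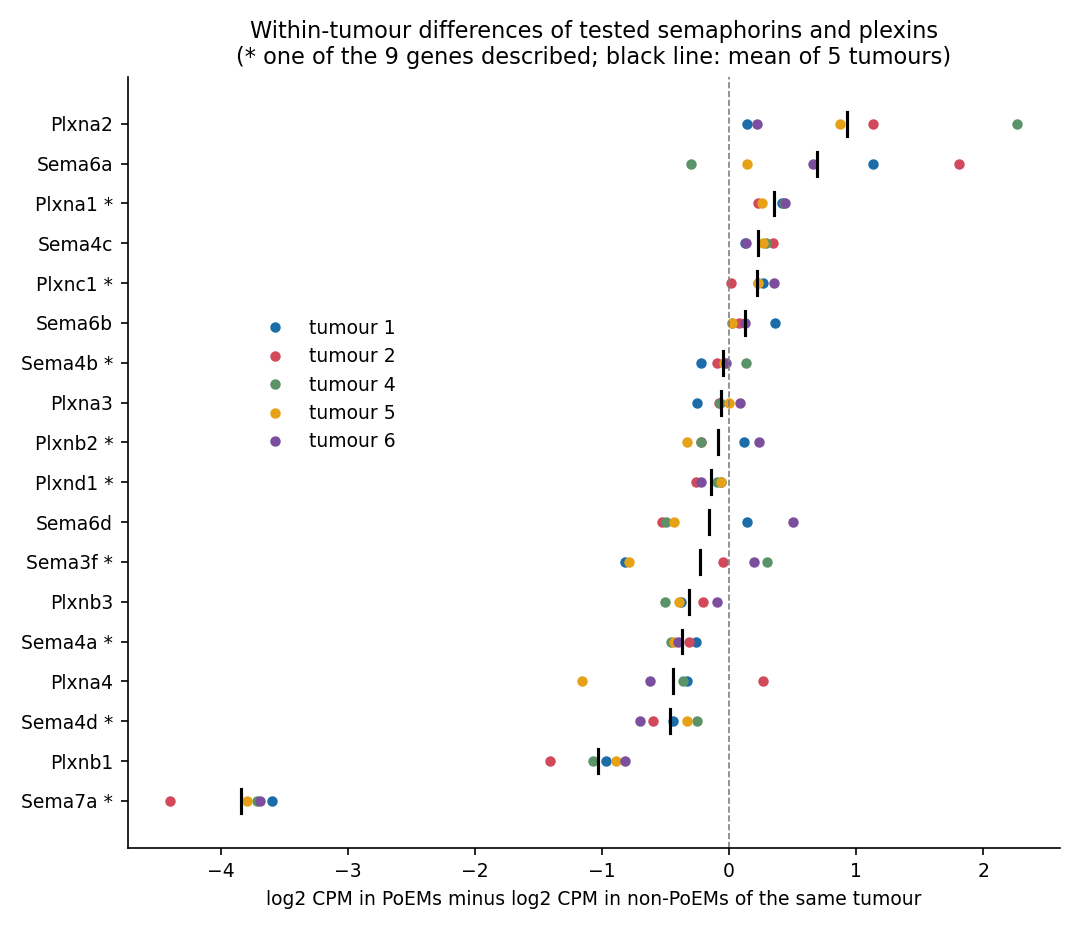
Log2 CPM in PoEMs minus log2 CPM in non-PoEMs of the same tumour (horizontal axis) for the 18 semaphorin and plexin genes tested, with 1 point per tumour and the mean as a black line. Sema7a lies between -4.40 and -3.60, far from the other genes, and all 5 points of Plxna1 lie between 0.23 and 0.44.

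Levels were set beside each other per kilobase of annotated exon (CPM per kb). In PoEMs, Plxnb2 led at 60.7 ± 3.0 CPM per kb, followed by Sema4a at 37.0 ± 3.1, Sema4d at 25.5 ± 3.71, Plxnd1 at 20.2 ± 5.36, Plxna1 at 15.01 ± 2.27 and Plxnc1 at 11.7 ± 0.965 (SD, n = 5). Sema4b at 3.24 ± 0.879, Sema7a at 0.670 ± 0.164 and Sema3f at 0.545 ± 0.0760 CPM per kb closed the order. The ranges of neighbours overlapped from Sema4d through Plxnc1, and between Sema7a and Sema3f, so those places are not separated. In non-PoEMs, Sema7a stood at 10.4 ± 4.85 CPM per kb, between Plxna1 at 11.7 ± 1.29 and Plxnc1 at 10.1 ± 0.98, with overlapping ranges. The other 8 genes kept the same order there as in PoEMs, with Plxnb2 first at 65.1 ± 11.4 CPM per kb and Sema3f last at 0.652 ± 0.161.

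**Figure D3:**
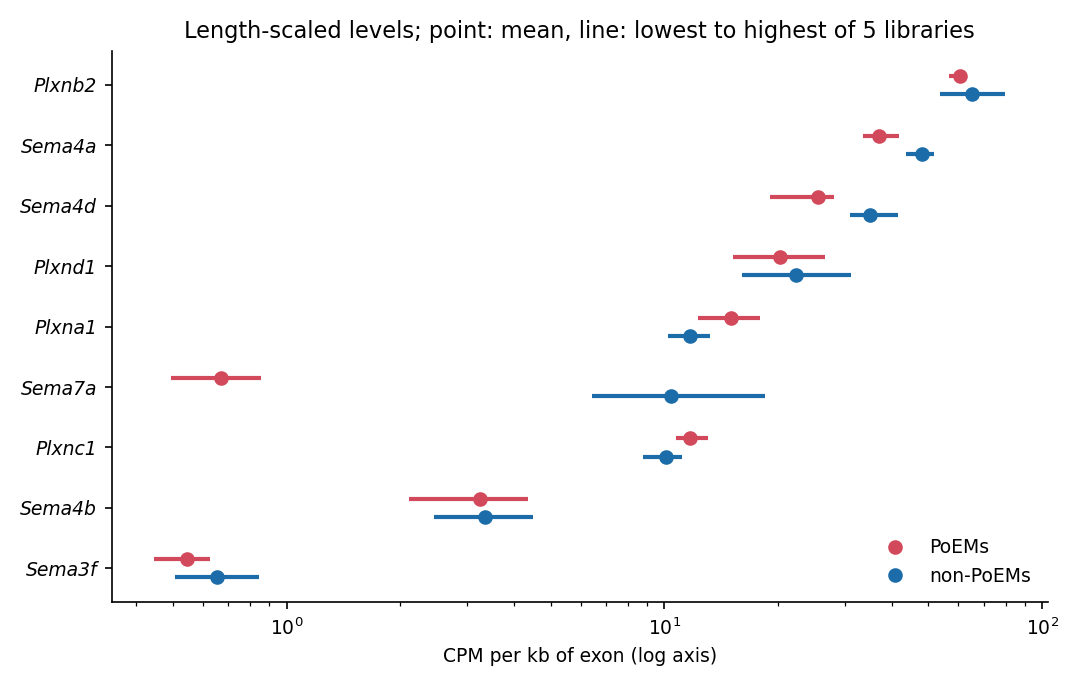
CPM per kb of annotated exon (horizontal log axis) of the 9 genes, with the mean as a point and a line from the lowest to the highest of 5 libraries, PoEMs above non-PoEMs. Sema7a lies near Sema3f in PoEMs and near Plxna1 and Plxnc1 in non-PoEMs.

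Mouse eosinophils, monocytes and neutrophils also carry CD11B, and F4/80 is not confined to macrophages. Sema7a ran along with the markers of several other leukocytes: eosinophils, neutrophils, monocytes, and mast cells with basophils. Of 9 eosinophil markers 5 were tested and 4 were lower in PoEMs, and 5 with the tumour as a block, against 6.77% and 14.3% of all genes. Summed over the 9, they came to 6.74, 14.4, 4.76, 7.39 and 13.8 CPM in PoEMs of tumours 1, 2, 4, 5 and 6, against 60.8, 149, 58.6, 104 and 97.3 CPM in non-PoEMs. As for Sema7a, tumour 2 was highest in both fractions, and tumours 1 and 4 were the lowest. The main contributors were Alox15 (4.98 ± 3.14 CPM in PoEMs and 51.7 ± 22.9 in non-PoEMs), Ccr3 (0.828 ± 0.337 and 16.7 ± 4.59) and Siglecf (2.55 ± 0.956 and 16.4 ± 6.23, SD, n = 5 each). The granule genes Epx, Prg2, Ear1 and Ear6 had no read in any PoEM library and averaged 0.192, 1.65, 0.0146 and 0.0605 CPM in non-PoEMs. Ear2, another granule gene of the list, had 68 reads in PoEMs and 259 in non-PoEMs and was called lower in the blocked fit but not without it (edgeR adjusted p = 5.72e-05 and 0.111). Per 100 CPM of these markers there were 19.1 to 34.2 CPM of Sema7a in PoEMs and 31.3 to 40.9 in non-PoEMs. Against neutrophil markers the same ratio was 1.37 to 2.24 in PoEMs and 8.29 to 20.6 in non-PoEMs, and against monocyte markers 0.307 to 0.487 and 1.83 to 3.93. These ratios depend on the genes summed. Csf3r, at 85.5 CPM in PoEMs and 146 CPM in non-PoEMs, made up most of the neutrophil sum. Retnlg in the same list had 1.35 CPM in PoEMs and 47.2 CPM in non-PoEMs (log2 fold change -5.13). Likewise Ccr2, at 424 CPM in PoEMs and 964 CPM in non-PoEMs, made up most of the monocyte sum. In the monocyte list Vcan was higher in PoEMs in 5 of 5 tumours and Chil3 differed little (log2 fold change 0.26 and -0.13, neither called). The mast cell and basophil markers summed to 1.5 to 3.61 CPM in PoEMs and 4.93 to 13.3 CPM in non-PoEMs, with 1 of 2 tested called lower, or both with the block. Of these, Gata2 had 9 reads in PoEMs and 154 in non-PoEMs (log2 fold change -3.98), and Mcpt8 7 and 95. Of the tested neutrophil markers 7 of 8 were lower and 1, Mmp8, was higher (log2 fold change 1.36). Of the monocyte markers 3 of 7 were lower, or 5 of 7 with the block. Over all genes 6.77% were called lower and 6.83% higher, or 14.3% and 13.8% with the block. As for the eosinophil sums, tumour 2 was highest in both fractions for the monocyte sums (703 and 1548 CPM). The same held for the mast cell and basophil sums. The part of any of these cells in the Sema7a values was not tested.

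**Figure D4:**
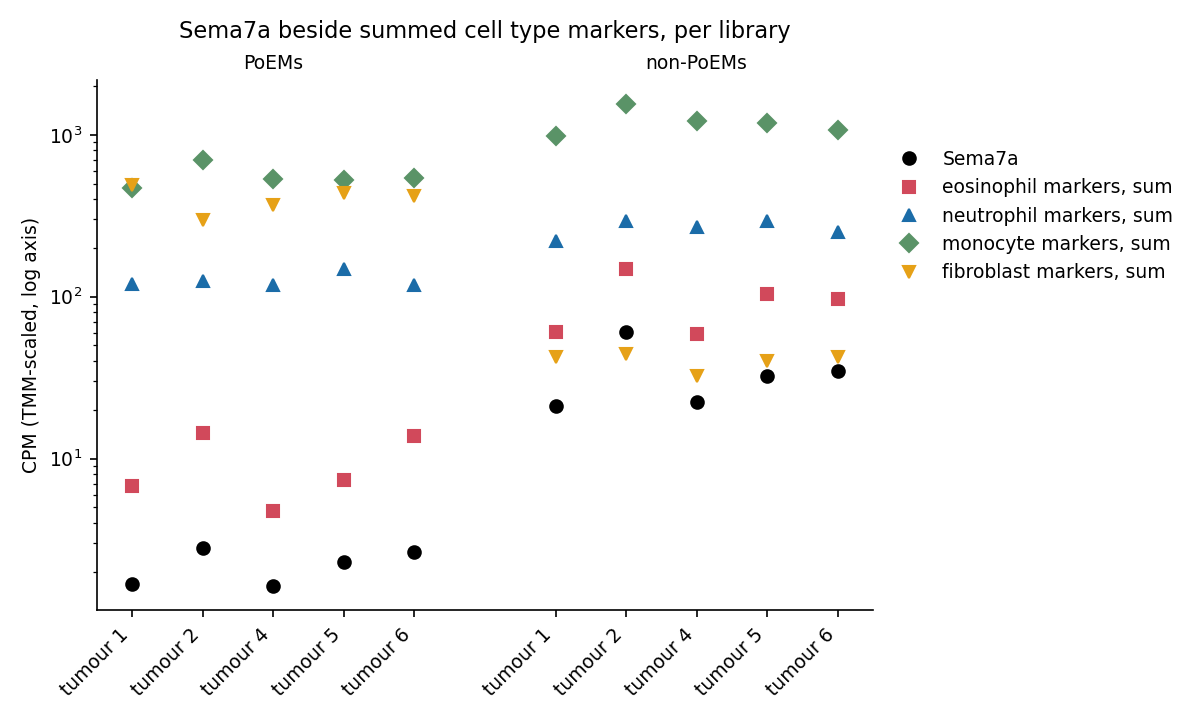
CPM (vertical log axis) of Sema7a and of the summed markers of eosinophils, neutrophils, monocytes and fibroblasts, with 1 point per library, PoEMs on the left and non-PoEMs on the right. Sema7a, the eosinophil sum and the monocyte sum are all highest in tumour 2 in each fraction. The neutrophil sum is highest in tumour 2 in non-PoEMs only. Fibroblast markers run the other way, at 298.7 to 487 CPM in PoEMs and 32.4 to 44.2 CPM in non-PoEMs.

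The profile of Sema7a over the 10 libraries was most like those of G0s2, Alox15 and Hdc among 8942 protein-coding genes whose mean log2 CPM reached 3. Their root mean square distances to it were 0.36, 0.51 and 0.92 on the log2 scale, where the profile of Sema7a itself varied by 1.97 around its mean. Alox15 is also in the eosinophil list, and resident peritoneal macrophages express it too. For Sema4d the nearest profiles were Pde4dip, Ppfia4 and Stx16 (0.08 to 0.10), and for Sema4a Lcp2, Ppp1r15b and Herc4 (0.06 to 0.07). For Plxna1 they were Lgals1, 2010111I01Rik and Ccdc71l (0.08 to 0.09), and for Plxnc1 Pgpep1, Peak1 and Fxyd5 (0.05 to 0.07). Plxnb2 was nearest to Slc8b1, Ssh3 and Snx30 (0.05 to 0.07), and Plxnd1 to Gramd4, Tsc22d3 and Sdc4 (0.14 to 0.15). Sema4b was nearest to Rsad2, Parp10 and Met (0.13 to 0.18), and Sema3f to Tmem67, Cdk10 and Insr (0.18 to 0.19). These distances share libraries and depth and are a description only.

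Differences between tumours, which the sort contrast did not use, were tested as the tumour term of the blocked fit. The test was added after the data were seen. Both fractions of a tumour are parts of that tumour and not replicates of it, so a tumour and its handling cannot be told apart. The measured CPM of the 9 genes were also known when they were chosen, so nothing is read from the share called. This term was called for 5 of the 9 genes, against 13.7% of all genes: Plxnd1 (edgeR adjusted p = 2.86e-05), Sema7a (0.000328), Sema4b (0.0006), Plxna1 (0.00595) and Sema4d (0.0444). Averaged over both fractions, Plxnd1 measured 115, 122, 142, 187 and 211 CPM in tumours 1, 2, 4, 5 and 6, a range of 1.84-fold. Sema4b measured 12.9, 18.8, 14.8, 25.0 and 21.5 CPM, a range of 1.94-fold, and was the most variable between tumours after Sema7a at 2.78-fold. Plxna1 was lowest in tumour 2 at 103 CPM and highest in tumour 6 at 141 CPM, while Sema4d was highest in tumour 2 at 264 CPM and lowest in tumour 6 at 192 CPM. Leaving out tumour 1, 2 or 6 ended the call of Sema4d (adjusted p = 0.0646, 0.111 and 0.356), and no other of the 9 changed its call under the settings tried. For Sema4a, Plxnc1, Plxnb2 and Sema3f the tumour term was not called (adjusted p = 0.081, 0.11, 0.283 and 0.94).

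The summed blood endothelial markers were, like Plxnd1, higher in tumours 5 and 6 than in the other 3 tumours. Their sum over 6 genes was 82.6, 134, 124, 247 and 242 CPM in PoEMs of tumours 1, 2, 4, 5 and 6, against 70.3, 99.6, 101, 153 and 181 CPM in non-PoEMs. Most of it was Pecam1 (156 CPM in PoEMs and 112 CPM in non-PoEMs), which macrophages also express. The vessel genes Cdh5 (4.72 and 5.04 CPM) and Tie1 (4.77 and 3.77 CPM) were low. Tek, Emcn and Cldn5 averaged at most 0.154 CPM in either fraction. Over both fractions, Cdh5 rose in the tumour order of Plxnd1, at 3.25, 4.27, 4.55, 5.69 and 6.625 CPM in tumours 1, 2, 4, 5 and 6. Tie1 did not follow that order, with 4.19 CPM in tumour 1 and 3.99 CPM in tumour 6. Of the 6 markers 3 were tested and none was called, or 1 higher with the block. Over all genes 13.6% were called in either direction, and 28.2% with the block. The epithelial and tumour cell markers had sums of 89.4, 110, 126, 202 and 253 CPM in PoEMs and 72.9, 87.2, 95.1, 109 and 204 CPM in non-PoEMs. Most of that sum was Cdh1, at 52.9 to 212.5 CPM in PoEMs and 37.7 to 157 CPM in non-PoEMs. Averaged over both fractions, Epcam, Krt8 and Krt18 did not follow the order of Plxnd1: they had 2.79, 12.3 and 19.7 CPM in tumour 1 and 2.48, 11.9 and 18.9 CPM in tumour 5. Of the macrophage markers, Mrc1 was also higher in tumours 5 and 6, at 3708 and 3408 CPM over both fractions. It had 2008, 2070 and 2740 CPM in tumours 1, 2 and 4. C1qa of the same list stayed at 3647 to 3787 CPM. The part of endothelial, epithelial or tumour cells in the Plxnd1 values was not tested.

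Of the 20 semaphorin and plexin genes outside the set, 9 passed the filter. Of these, 1 rose and 1 fell in PoEMs, against 6.83% and 6.77% of all genes. Plxna2, a receptor of class 3 and class 6 semaphorins, rose, with 1.48, 1.95, 2.67, 1.91 and 1.63 CPM in PoEMs against 1.33, 0.852, 0.498, 1.01 and 1.39 CPM in non-PoEMs of tumours 1, 2, 4, 5 and 6 (edgeR adjusted p = 0.0396, log2 fold change 0.93 ± 0.27 SE). The fractions did not overlap, but the call was lost on leaving out PoEMs of tumour 2, 4, 5 or 6 or non-PoEMs of tumour 2, 4 or 5 (adjusted p up to 0.117), and in the blocked fit without tumour 2, 4 or 5 (up to 0.13). Plxnb1, the high-affinity Sema4d receptor, fell, with 1.12, 0.794, 0.912, 1.52 and 1.09 CPM in PoEMs against 2.27, 2.23, 1.99, 2.88 and 1.97 CPM in non-PoEMs (edgeR adjusted p = 0.00612, log2 fold change -1.06 ± 0.21 SE). That call held in every setting run (adjusted p at most 0.021 with a library left out). The median log2 fold change of these 9 genes was -0.08.

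The more abundant semaphorins among the rest were Sema4c, Sema6b and Sema6d, all membrane-bound. Sema4c measured 52.0 ± 5.49 CPM in PoEMs and 44.3 ± 4.24 CPM in non-PoEMs (SD, n = 5 each, edgeR adjusted p = 0.0939) and was called higher once tumour entered as a block (adjusted p = 0.0051). Sema6b measured 45.4 ± 5.15 and 42.0 ± 7.17 CPM, Sema6d 13.2 ± 3.43 and 14.8 ± 4.49 CPM, and Plxna4 6.42 ± 3.1 and 8.29 ± 2.54 CPM in the same order, none called with or without the block. Sema5b had no read. Of the semaphorins below the filter, Sema3c, a secreted class 3 ligand, had 45 reads in PoEMs and 7 in non-PoEMs, or 0.651 ± 0.339 and 0.101 ± 0.110 CPM. Its exact two-sided permutation p was 0.00794, the smallest 5 against 5 libraries can give, and the Benjamini-Hochberg adjusted value over the 15 listed genes that failed the filter was 0.0595. Pcsk5, a proprotein convertase of the furin family, had 93 reads in PoEMs and 5 in non-PoEMs, with the same p and adjusted value. Both were singled out after their values were seen. PoEM libraries were also higher in fibroblast markers (10 of 11 called, against 6.83% of all genes). The part of fibroblasts in the low-level genes Plxna2, Sema3c and Pcsk5 was not tested.

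Among the 12 tested genes for co-receptors and other semaphorin receptors, 1 rose and none fell, against 6.83% and 6.77% of all genes. In the blocked fit 3 rose (Trem2, Nrp2 and Havcr2) and 1 fell (Cd72), against 13.8% and 14.3% of all genes. Trem2, a lipid receptor that partners plexin A1, rose to 257 ± 12.2 CPM in PoEMs, against 219 ± 19.5 CPM in non-PoEMs (edgeR adjusted p = 0.0404). Its call was lost in 7 of the 10 fits that left out a library (PoEMs of tumours 1, 4 and 6 and non-PoEMs of tumours 1, 2, 5 and 6, log2 fold change 0.20 to 0.23), and with no filter on low counts (adjusted p = 0.0532). Nrp2, the neuropilin of Sema3f and of VEGFC, measured 307 ± 39.9 CPM in PoEMs and 245 ± 40.1 CPM in non-PoEMs (edgeR adjusted p = 0.0867, and 9.84e-05 with the block) and was higher in PoEMs of 5 of 5 tumours. Nrp1 measured 252 ± 15.03 and 327 ± 88.4 CPM (adjusted p = 0.142), and the adhesion molecule gene L1cam 4.81 ± 0.461 and 6.2 ± 2.11 CPM (adjusted p = 0.252), PoEMs first. Without non-PoEMs of tumour 6, both Nrp2 (adjusted p = 0.0365) and Nrp1 (0.0336, lower) were called. Per kilobase, Nrp1 and Nrp2 lay near Sema4d in PoEMs, at 25.7 ± 1.54 and 25.9 ± 3.37 CPM per kb. Itgb1, the beta chain of the Sema7a integrin receptors, measured 631 ± 32.1 CPM in PoEMs and 610.3 ± 46.5 CPM in non-PoEMs (adjusted p = 0.696). The mouse Sema4a receptor gene Timd2 had no read.

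Of 28 tested genes for proteins that relay plexin signals, 2 rose and 4 fell in PoEMs, against 6.83% and 6.77% of all genes. With the block 5 rose and 4 fell (Mical1, Mical2 and Dpysl2 added), against 13.8% and 14.3% of all genes. Sh3bp1, a GTPase-activating protein for Rac, fell to 185 ± 9.24 CPM in PoEMs, against 232 ± 8.39 CPM in non-PoEMs (edgeR adjusted p = 0.00204). Gipc1, an adaptor that binds neuropilin 1 and plexin D1, rose to 97.4 ± 6.98 CPM, against 77.2 ± 6.92 CPM in non-PoEMs (adjusted p = 0.00923). The Rnd GTPases, which bind plexins directly, went both ways: Rnd3 fell to 18.8 ± 3.56 CPM against 28.9 ± 4.16 CPM in non-PoEMs (adjusted p = 0.0109), while Rnd2 rose to 4.52 ± 1.06 CPM against 2.88 ± 0.371 CPM in non-PoEMs (adjusted p = 0.0293). The call of Rnd2 was lost without PoEMs of tumour 4 or 6 or non-PoEMs of tumour 2 or 4 (adjusted p up to 0.0764). Rnd1 and the integrin-activating GTPase gene Rap1a also fell (log2 fold change -0.70 and -0.29). The median log2 fold change over the 28 was -0.03.

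Of 7 genes for proteases that process semaphorins, 5 passed the filter, 2 rose and 1 fell, against 13.6% of all genes called in either direction. With the block 3 rose and 1 fell, against 13.8% and 14.3% of all genes. Pcsk5 and Pcsk6, at 1.34 and 0.37 CPM in PoEMs and 0.0759 and 0.117 CPM in non-PoEMs, failed the filter. Furin, which cleaves class 3 semaphorins, rose to 654 ± 153 CPM in PoEMs, against 439 ± 72.4 CPM in non-PoEMs (edgeR adjusted p = 0.0351, and 4.62e-06 with the block). Without the block its call was lost on leaving out PoEMs of tumour 4, 5 or 6 or non-PoEMs of tumour 1, 2 or 4 (adjusted p up to 0.0892), and with no filter on low counts (0.0903). The sheddase gene Adam10 rose to 353 ± 12.9 CPM against 294 ± 11.4 CPM in non-PoEMs (adjusted p = 0.00686), with no overlap. Adam17, a second sheddase, fell to 273 ± 13.1 CPM against 317 ± 21.6 CPM in non-PoEMs (adjusted p = 0.0402). That call was lost in 8 of the 10 fits without a library, held without non-PoEMs of tumour 1 or 6, and was lost with no filter (adjusted p = 0.0641). Mmp14, a membrane metalloproteinase that sheds Sema4d in human tumour cells, measured 661 ± 47.6 CPM in PoEMs and 567 ± 62.3 CPM in non-PoEMs (adjusted p = 0.0966, and 0.00579 with the block).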

How the data were processed

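The authors deposited 1 table of raw counts per gene for 10 libraries, made from SMART-Seq amplified RNA per the labels' protocols. The submitters' processing notes name featureCounts 1.5.3, STAR 2.5.2b, Bowtie2 2.3.3.1 and cutadapt 1.15. The build, annotation and strand setting were not given in the sources used here. Counts are reads, not molecules. Columns were matched by title.

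The test was that of edgeR 4.0.16 (R 4.3.3): filterByExpr (minimum count 10, minimum total 15), TMM scaling and a robust quasi-likelihood fit on group, without the tumour as a block. Calls were made at 0.05 after Benjamini-Hochberg adjustment over 13595 genes. The SE is the absolute log2 fold change over the square root of F, so it adds nothing to p. Within-tumour log2 differences used a prior count of 1. Fractions with a number come from 1 tumour per the labels, and their deviations from group means correlated over genes at 0.231 to 0.489, against at most 0.0797 between tumours. Replicates of a group always differed by more than sampling noise (chi-square per gene at least 7.6).

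Named were the 9 members, each other family gene called and the next 4 by level, up to 4 genes per further list by lowest p, up to 3 markers per list used, the sort genes and the 3 nearest profiles per member. Havcr2, Cd72, Mical1, Mical2, Dpysl2, Rnd1, Rap1a, Pcsk5, Itgb1, Timd2, Sema3c, Sema5b, Tek, Emcn, Cldn5, Epcam, Krt14, Mmp8, Chil3, Pcsk6, Ear2, Epx, Prg2, Ear1 and Ear6 were added after their values were seen. The members and lists were chosen with earlier results of these data known. Exon lengths and positions are from GENCODE M21 (GRCm38), a build not stated for the counts. DESeq2 1.42.0, other scalings, no filter, the block and leaving out libraries or tumours were tried as alternatives. The edgeR step was tested on simulated data.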

Additional observations from a re-analysis of the deposited data

Results flagged for a closer look

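In 30 groups of 5 libraries (15 genes of the family, 2 fractions each) 2 held a library far from the other 4, where chance gives about 1 in 20. Sema4d in PoEMs of tumour 6, at 146 CPM, lay below the rest of its fraction, with a gap of 0.787 of the whole range against a limit of 0.71. Sema4c in non-PoEMs of tumour 5, at 36.9 CPM, lay below its fraction with a gap of 0.741 of the range. Without that library the log2 fold change of Sema4c was 0.17, against 0.23 with it, and was not called (edgeR adjusted p = 0.189). Of the other 9 libraries, leaving out PoEMs of tumour 5 alone gave a call (0.29, adjusted p = 0.0438).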

How the results depend on the processing

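Over the 20 alternatives the log2 fold change of Sema7a ran from -4.09 to -3.65, of Sema4a from -0.42 to -0.34, of Sema4d from -0.53 to -0.37, of Plxna1 from 0.29 to 0.42 and of Plxnc1 from 0.17 to 0.27. These genes were chosen with this contrast known, so an unchanged sign or call is no support for it. With the tumour as a replicate block, the counts of called genes were 1880 higher and 1950 lower in PoEMs, against 929 and 920 without it. Among the 9 genes, 2 were then called higher, and among the other semaphorins and plexins 2 were. The block also called Plxnc1, Plxnd1, Sema4c, Nrp2, Havcr2, Cd72, Mical1, Mical2, Dpysl2, Mmp14, Cd68, Pecam1, Cdh1, Epcam, Krt8 and Ear2. It changed no other call of a gene named here, leaving aside genes named only as nearest profiles, whose calls were not compared. With no filter on low counts, 2 of the other semaphorins and plexins were called higher. Leaving out single libraries gave 617 to 1049 genes higher and 577 to 1026 lower, with the lowest counts without PoEMs of tumour 4 (617 higher, 588 lower) and non-PoEMs of tumour 2 (577 lower). With the block and 1 tumour left out, these counts were 1360 to 1925 (1505, 1447 and 1398 without tumours 1, 4 and 5) and 1380 to 2016 (1692, 1677 and 1564). Over the fits that left out a library or a tumour, the 9 genes had 0 to 2 called higher and 3 to 4 lower, and the other semaphorins and plexins 0 to 2 higher and 1 to 2 lower. Sema4b ran from -0.18 to 0.079 and Plxnd1 from -0.26 to 0.0026. Sema6d ran from -0.28 to 0.0079 over single libraries, turning sign without non-PoEMs of tumour 5, and was called lower with the block and without tumour 6 (-0.32). The cause of these shifts was not tested. RLE and upper-quartile scaling moved the median of all genes by at most 0.01 on the log2 scale. Counting error limits Sema3f, Sema3c and the PoEM values of Sema7a.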
